A study of Saccharomyces cerevisiae with 14 samples.

Results

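The 10 genes studied here belong to the late ergosterol pathway of budding yeast, *Saccharomyces cerevisiae*, and were followed across 5 strains in 14 RNA-seq libraries. The members are ERG1, ERG11, ERG24, ERG25, ERG28, ERG6, ERG2, ERG3, ERG5 and ERG4, taken by name from a table of 5886 genes, and all 10 passed the filter of a mean of at least 1 FPKM (fragments per kilobase of transcript, scaled to the library's total) that left 5727 genes to test. The members were selected on their log2 fold changes in TYS1 DAmP against WT, which were known when the pathway was picked, so every value of that comparison, the other genes' included, is a description. Counts at test thresholds are printed there only beside their background. The strains were haploid BY4741 (MATa, with the auxotrophic alleles his3Δ1, leu2Δ0, met15Δ0 and ura3Δ0), grown in rich YPD medium with 2% glucose and collected in log phase. WT, the BY4741 parent, gave 2 libraries analysed here, and MSB3Δ, NIT3Δ, HSP26Δ and TYS1 DAmP gave 3 libraries each. In each deletion a marker cassette replaces the open reading frame: that of MSB3, a GTPase-activating protein of vesicle traffic, NIT3, of the nitrilase family, or HSP26, a small heat shock protein. TYS1 encodes the essential tyrosyl-tRNA synthetase, and its DAmP allele carries a cassette directly after the reading frame, which lowers the transcript without removing it. All 4 were profiled by the study as long-lived mutants. The labels call the libraries of a strain biological replicates but do not say whether they came from separate cultures or transformants, so p-values measure only the spread between these libraries.

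Ergosterol is the main sterol of fungal membranes, with the role that cholesterol has in animals. Squalene is oxidised and closed into lanosterol, which is then stripped of methyl groups, methylated on its side chain and desaturated in the endoplasmic reticulum. ERG1 (squalene epoxidase), ERG11 (lanosterol demethylase, the target of azole antifungals), ERG25 (methyl sterol oxidase), ERG3 and ERG5 (sterol desaturases) use molecular oxygen. ERG11 and ERG5 are heme-containing cytochromes P450, and ERG25 and ERG3 are membrane enzymes with non-heme iron. ERG24 (a sterol reductase that follows ERG11), ERG6 (sterol methyltransferase), ERG2 (sterol isomerase) and ERG4 (the reductase of the last step) use no oxygen, and ERG28 is a scaffold of the demethylation complex rather than an enzyme. The transcription factors Upc2 and Ecm22 are known to induce many of these genes when sterol is short, through a sterol response element with the core TCGTATA.

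That core is shown because promoters of this pathway are known for it. It was searched on both strands of the 500 bases before each start codon in RefSeq build R64, the build that the submitters' processing notes name. Of the 10 members, 6 (ERG1, ERG25, ERG28, ERG6, ERG2 and ERG3) held it, against 402 of 5711 tested genes with a full window (7.04%). Each match is shown 5′ to 3′ along the core, with the core in capitals and 10 bases on each side.
ERG1, chrVII:848789-848815, minus strand: tagcgggcctTCGTATAgctcggccga
ERG25 upper, chrVII:610071-610097, plus strand: ctgcctccctTCGTATAcgggacacag
ERG25 lower, chrVII:610091-610117, plus strand: gacacagagaTCGTATAcggtaaacga
ERG28, chrV:238278-238304, plus strand: ttaattcagtTCGTATAagattaggtt
ERG6, chrXIII:253406-253432, minus strand: gccccgatctTCGTATAtggtacctcg
ERG2, chrXIII:667342-667368, plus strand: accacggcccTCGTATAagccgcaagg
ERG3 upper, chrXII:253525-253551, minus strand: gccatcggccTCGTATAcaccccggtt
ERG3 lower, chrXII:253565-253591, plus strand: aaattcaggcTCGTATAagtggcacaa
ERG25 and ERG3 each held 2 copies. The copies of ERG25 lie 483 and 463 bases before the start codon (first base of the core), and the windows shown overlap. Those of ERG3 lie 326 and 286 bases before it, on opposite strands. ERG2 held the copy nearest to its start codon, at 185 bases. ERG11, ERG24, ERG5 and ERG4 held none in this window, which says only that these letters are not there. The core of the site of Rox1, a repressor of hypoxic genes (ATTGTT, both strands), was in the windows of 5 of the 10 members and of 49.2% of the 5711 genes, so the members' share is near the background. These matches are descriptions of the sequence and not sites shown to be bound.

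The libraries differed in a way that touches the members. The authors' FPKM values summed to between 1432694 and 1808700.0 per library, and from the steps in low values the depth was estimated at 22.1 to 26.4 M fragments, an estimate that depends on the transcript length assumed. On that estimate at least 817 fragments lie behind every member value, a counting error of at most 3.5%, so the spread between libraries and not counting limits the precision. Genes of cytosolic ribosomal proteins took 38.6% to 48.4% of the FPKM sum in 12 libraries but 30.1% in MSB3Δ replicate 1 and 18.1% in NIT3Δ replicate 2. The members' medians and counts in those strains are given below with and without these libraries. Each targeted gene was lower in its own mutant than in WT: MSB3, NIT3 and HSP26 were at 0.28 FPKM or below in all of their own deletion's libraries, and TYS1 was at 66.2, 71.4 and 82.5 FPKM in TYS1 DAmP against 512 and 563 in WT. MET17, the gene of the met15 allele, was at 0.03 FPKM or below in every library, and STE2, a receptor of MATa cells, was at 90.5 FPKM or above. Other markers were less clear. HIS3, the gene of the his3Δ1 allele, was at 122 to 231 FPKM, a level that does not tell a truncated allele from an intact gene. BAR1, also of MATa cells, ranged from 3.61 to 175.5 FPKM, and STE3, of MATα cells, from 4.99 to 19.5. In HSP26Δ BAR1 was at 6.36, 8.41 and 3.61 FPKM and STE3 at 7.83, 10.1 and 5.07. The highest value of SAG1, of MATα cells, was 27.0 FPKM.

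In WT the members spanned a wide range of levels. ERG2 was highest at 754 ± 35.2 FPKM (SD, n = 2), followed by ERG6 at 437 ± 28.4, ERG3 at 415 ± 50.8 and ERG25 at 369 ± 42.1 (SD, n = 2 each). ERG6 and ERG3 overlapped in range, as did ERG3 and ERG25, so their order is not resolved. ERG28, ERG1, ERG11 and ERG4 lay between 142 and 246 FPKM, and ERG24 and ERG5 were lowest at 54.4 and 29.4 FPKM. In TYS1 DAmP the order differed at both ends. ERG3 was highest at 2015 ± 331 FPKM (SD, n = 3), with a range that overlapped that of ERG2, and ERG4 moved from the 8th to the 10th place.

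**Figure D1:**
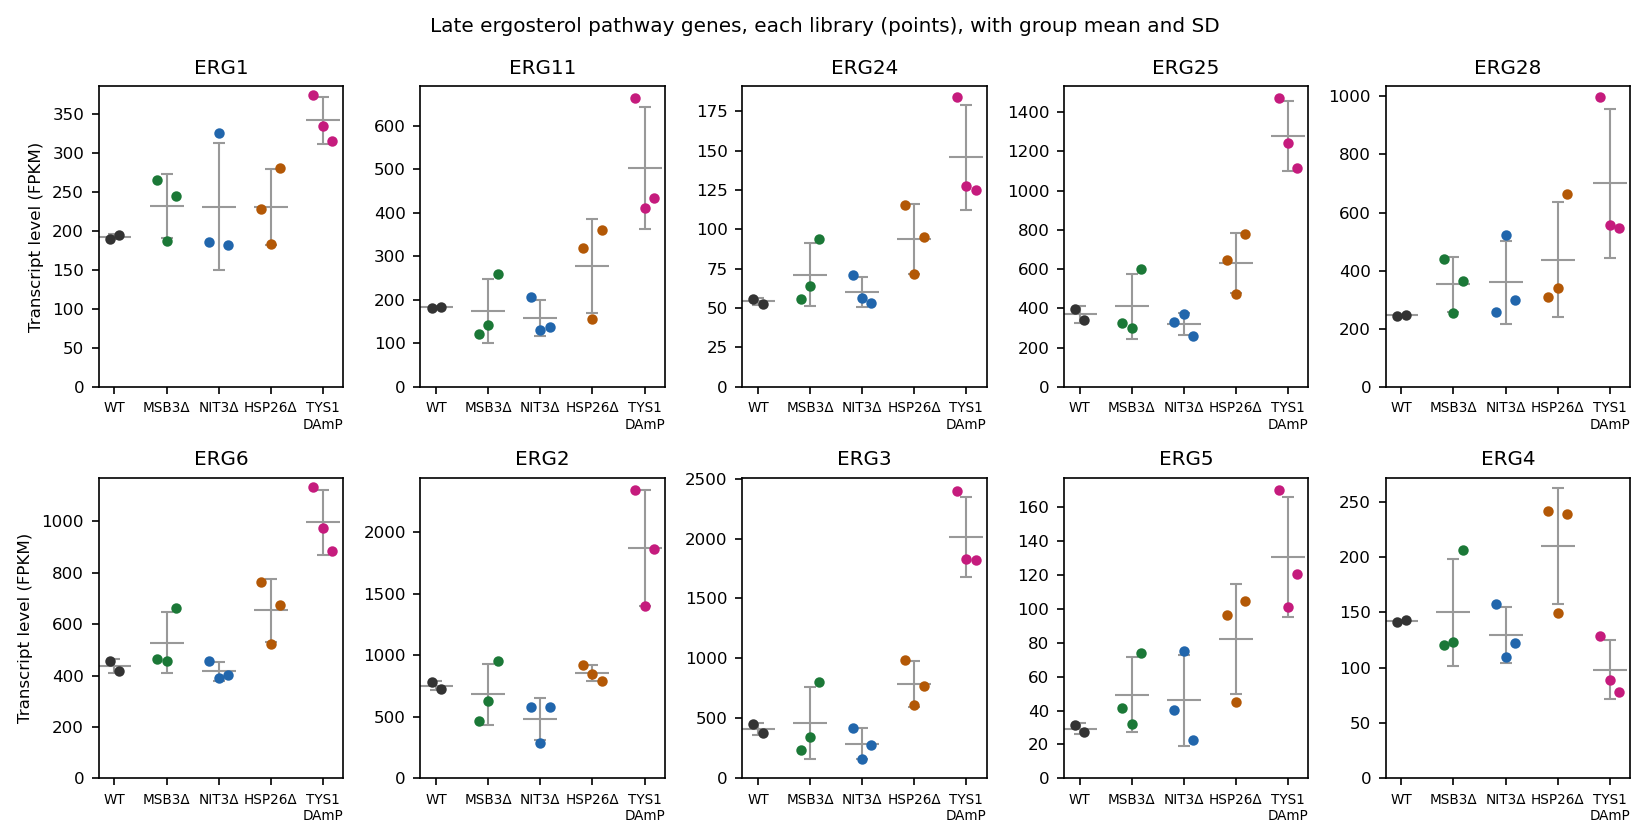
Transcript level (FPKM, linear axes from 0) of each member in every library, with the group mean and SD (grey). The mean of TYS1 DAmP is the highest of the 5 strains for 9 members and the lowest for ERG4, and in HSP26Δ replicate 2 is the lowest library for 8 members, all but ERG28 and ERG2.

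In TYS1 DAmP 9 of the 10 members were above both WT libraries in all 3 libraries, and ERG4 was below both in all 3. In bulk RNA a change in every cell and a larger change in some cells cannot be told apart. ERG3 (YLR056W, chrXII:253861-254958, plus strand), the desaturase of the sterol ring, differed most. It was at 2397, 1828 and 1819 FPKM in the 3 TYS1 DAmP libraries against 451 and 379 in WT, and at 164 to 991 in the other 9 libraries. Its log2 fold change over WT was 2.27 (SE 0.19). ERG5 (YMR015C, chrXIII:300869-302485, minus strand), the side-chain desaturase, was at 170.1, 101 and 121 FPKM against 31.6 and 27.2 in WT (log2 fold change 2.09, SE 0.24). ERG25 (YGR060W, chrVII:610564-611493, plus strand) was at 1472, 1243 and 1117 FPKM against 399 and 339, or 1.78 (SE 0.18). These 3 members encode oxygen-using enzymes, but the other 2 oxygen-using enzymes were not set apart from the rest. ERG11 was at 663, 410.4 and 435 FPKM against 182 and 184 in WT (1.42, SE 0.24). ERG1 was at 374, 335 and 315 against 189.9 and 195 (0.82, SE 0.15), the smallest positive difference. The order comes from the comparison that singled out the pathway, and nothing is read from it.

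The remaining 4 higher members lay between these values. ERG28 was at 997, 558 and 546 FPKM against 245 and 248 in WT (log2 fold change 1.44, SE 0.29). ERG24 was at 184, 128 and 125 against 56.0 and 52.8 (1.38, SE 0.21), ERG2 at 2343, 1399 and 1866 against 779 and 729 (1.28, SE 0.23), and ERG6 at 1134, 974 and 883 against 457 and 417 (1.18, SE 0.17). TYS1 DAmP replicate 1 was the highest of its strain for all 10 members. The fold changes are on the log2(FPKM + 1) scale. The median over the 10 members was 1.40, against 0.07 over all 5727 genes. At the study's thresholds (more than 1.5 or less than 0.7 times WT, and under 0.05 for the unadjusted p, here from limma) 9 members were counted higher where 3.34% of all genes were. At a Benjamini-Hochberg adjusted p under 0.05, 2 members, ERG25 and ERG3, were counted where 0.0873% of all genes were. Without overlap between the libraries, 9 members were higher (20.4% of all genes) and 1 was lower (12.4% of all genes), and 9 were under an unadjusted p of 0.05 (7.74% of all genes). These counts come from the comparison that singled the pathway out, and nothing is read from them. Together the members took 0.573%, 0.426% and 0.419% of the FPKM sum in TYS1 DAmP and 0.162% and 0.157% in WT.

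ERG4 (YGL012W, chrVII:472855-474276, plus strand), which completes ergosterol, was the exception. It was at 128, 88.4 and 78.0 FPKM in TYS1 DAmP and at 141 and 143 in WT, and the groups did not overlap. Its log2 fold change of -0.56 (SE 0.24) was the only negative one among the members. Outside TYS1 DAmP, ERG4 followed the other members: over the 11 other libraries its level correlated with the mean of the other 9 members at r = 0.93, and over all 14 libraries at r = -0.11 (Pearson, a description over libraries that share strains). The deviations from the group means correlated at r = 0.92, so within strains too ERG4 was high in the libraries where the other members were high. In TYS1 DAmP replicate 1, where the other 9 members were highest (1.85 log2 units above WT on average), ERG4 was 0.14 below WT, and in replicates 2 and 3, with the others 1.34 and 1.37 above, it was 0.68 and 0.86 below.

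**Figure D2:**
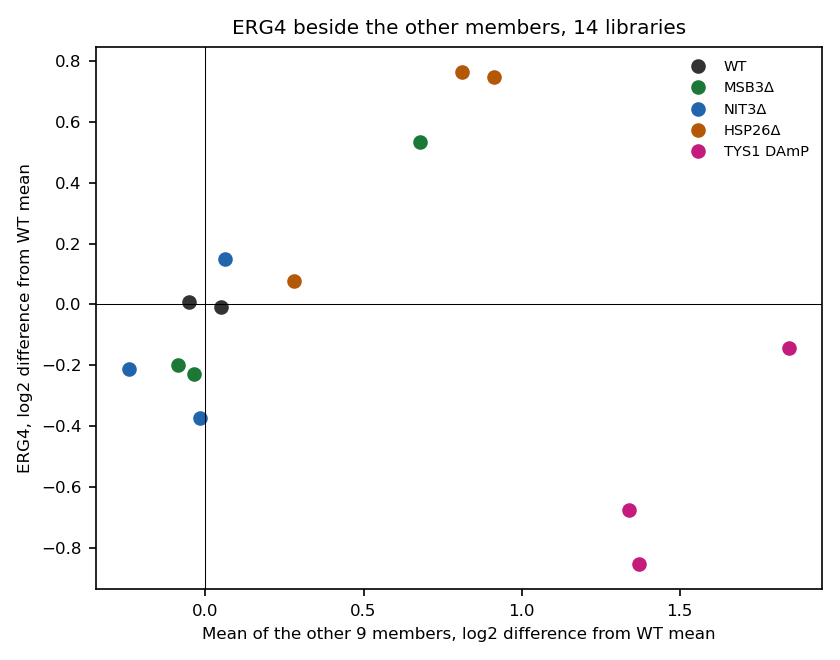
Each point is 1 of the 14 libraries: the mean of the other 9 members (horizontal) and ERG4 (vertical), both as log2(FPKM + 1) minus the WT mean. The 11 libraries outside TYS1 DAmP lie along a rising line, and the 3 TYS1 DAmP libraries lie apart at 1.34 to 1.85 on the horizontal axis and -0.86 to -0.14 on the vertical axis.

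In HSP26Δ all 10 members, ERG4 included, had a positive log2 fold change over WT, with a median of 0.65 against 0.08 over all genes. At the study's thresholds 4 were higher (ERG5, ERG3, ERG24 and ERG25), where 5.67% of all genes were, and 8 were above both WT libraries in all 3 libraries, where 27.6% of all genes were. No member had an adjusted p under 0.05 (0.0349% of all genes had), and 5 had an unadjusted p under 0.05 (15.6% of all genes). This comparison uses the same 2 WT libraries as the one that singled out the pathway. ERG5 was at 96.4, 45.1 and 105 FPKM against 31.6 and 27.2 in WT (log2 fold change 1.36, SE 0.35, limma adjusted p = 0.200). ERG3 was at 991, 611 and 768 FPKM against 451 and 379 (0.91, SE 0.23, limma adjusted p = 0.200). Both desaturases were thus higher in every HSP26Δ library than in either WT library.

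ERG24 was at 116, 71.5 and 94.9 FPKM in HSP26Δ (log2 fold change 0.75, SE 0.21) and ERG25 at 647, 474 and 779 (0.75, SE 0.23), and again all 3 libraries were above WT. ERG28 (0.74, SE 0.32), ERG6 (0.56, SE 0.20), ERG4 (0.53, SE 0.24) and ERG2 (0.18, SE 0.16) did not pass both thresholds but did not overlap with WT. ERG4 was at 242, 149.7 and 239 FPKM, on the other side of WT from its values in TYS1 DAmP. ERG11 and ERG1 overlapped with WT through 1 library: ERG11 was at 319, 156 and 360.0 FPKM and ERG1 at 228, 183 and 280.1, with replicate 2 the lowest and below WT in both. HSP26Δ replicate 2 was the lowest of its strain for 8 members. Without it, 7 members had an adjusted p under 0.05 and the median log2 fold change was 0.88. The share of all genes called without that library is not given here, so this count is not read as particular to the members.

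**Figure D3:**
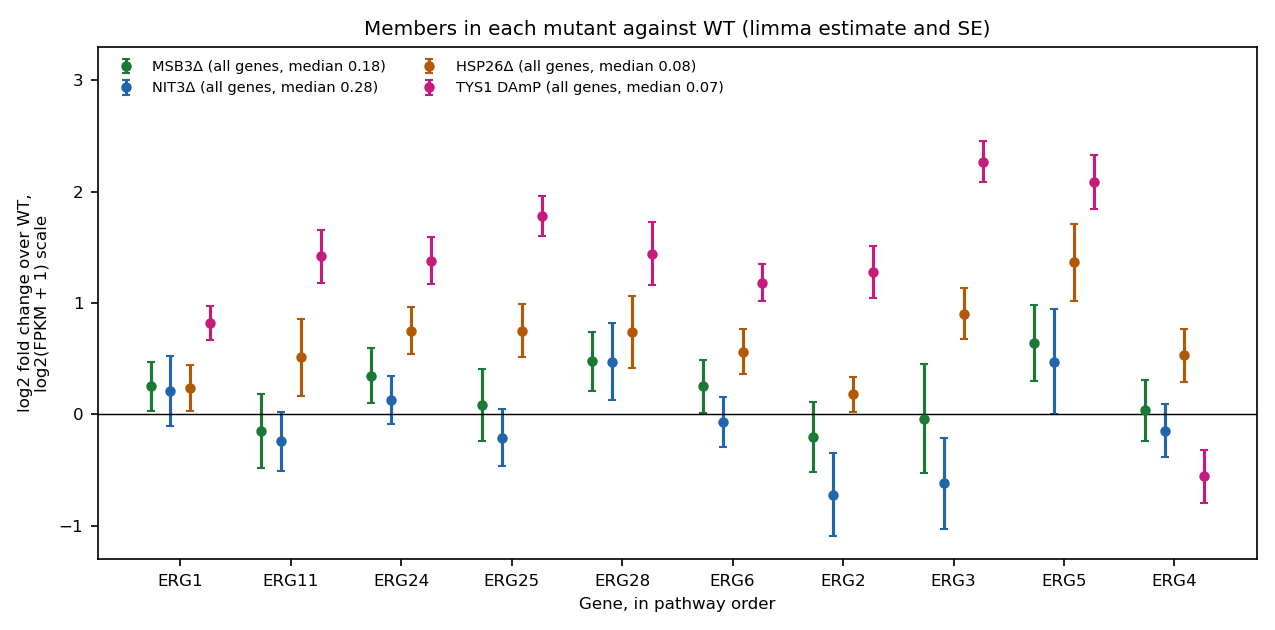
Log2 fold change over WT with its SE (limma, log2(FPKM + 1) scale) for each member, in pathway order, in the 4 mutants. TYS1 DAmP ranges from -0.56 (ERG4) to 2.27 (ERG3), HSP26Δ lies above 0 for all 10, and MSB3Δ and NIT3Δ lie around 0; the legend gives the median of all genes.

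In MSB3Δ and NIT3Δ no member passed either set of thresholds. The median log2 fold change of the members was 0.17 in MSB3Δ, beside 0.18 over all genes, and -0.11 in NIT3Δ, beside 0.28 over all genes. In MSB3Δ 3.93% of all genes were called higher and 0.559% lower, 0.0175% passed at the adjusted p and 6.44% at the unadjusted p, with 0 of the 10 members in each. In NIT3Δ the shares of all genes were 4.31%, 0.506%, 0.0175% and 5.05%, again with 0 members. ERG28 and ERG5 were above both WT libraries in every MSB3Δ library (26.1% of all genes were), with log2 fold changes of 0.48 (SE 0.27) and 0.64 (SE 0.34). In NIT3Δ ERG28 lay above (0.47, SE 0.34; 38.6% of all genes did) and ERG2 below (-0.72, SE 0.38; 9.57% of all genes did). The shares of members that did not overlap with WT are near or below these backgrounds. Without MSB3Δ replicate 1 the members' median in MSB3Δ was 0.26 beside 0.06 over all genes, and without NIT3Δ replicate 2 that in NIT3Δ was -0.05 beside 0.11. In both, 0 members passed the study's thresholds or an adjusted p under 0.05. At the study's thresholds 2.48% and 4.4% of all genes were higher in these 2 settings.

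The spread within these 2 strains was wide and not shared by all members. MSB3Δ replicate 3 had all 10 members above both WT libraries, while replicates 1 and 2 had 4 and 3. Of all genes tested, 38.9%, 75.5% and 56.3% were above both WT libraries in replicates 3, 1 and 2. In that library ERG3 was at 804 FPKM against 236 and 344 in the other 2, ERG25 at 599 against 327 and 302, and ERG4 at 206 against 121 and 123. Over the members its median difference from WT was 0.59 on the log2 scale, between those of HSP26Δ replicate 2 (0.31) and replicate 1 (0.80). Ribosomal protein genes took 43.0% of its FPKM sum, within the range of the other strains. With MSB3Δ replicate 3 left out, ERG3 had a log2 fold change of -0.54 in place of -0.04, and ERG25 one of -0.22 in place of 0.08.

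The 2 libraries with few ribosomal protein transcripts showed a mixed picture. NIT3Δ replicate 2 held the lowest level of the 14 libraries for ERG3 (164 FPKM), ERG2 (284) and ERG6 (392). ERG1 (325), ERG28 (524) and ERG5 (75.3) were above every WT and every other NIT3Δ library. MSB3Δ replicate 1 had 4 of these members at its strain's extremes: ERG3 at 236 and ERG2 at 466 FPKM were the lowest of MSB3Δ, and ERG1 at 265 and ERG28 at 439 the highest. ERG6 and ERG5 were not at the extremes there, while ERG11 (122 FPKM), ERG24 (55.9) and ERG4 (121) were also the lowest of MSB3Δ. Across all genes 75.7% of those tested were above both WT libraries in NIT3Δ replicate 2 and 75.5% in MSB3Δ replicate 1, against 28.7% to 61.4% in the other 10 mutant libraries. With NIT3Δ replicate 2 left out, ERG1 in NIT3Δ had a log2 fold change of -0.07 in place of 0.21. The part of the ribosomal share in the members' values was not tested.

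**Figure D4:**
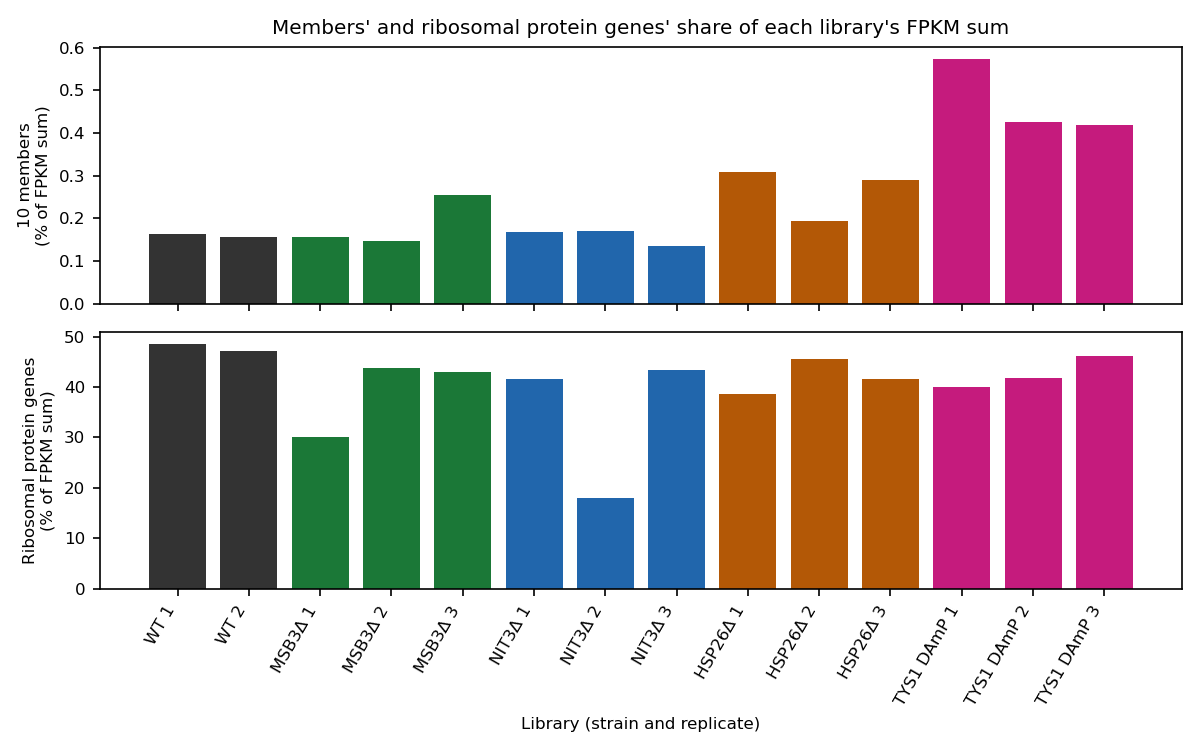
Share of each library's FPKM sum taken by the 10 members (top) and by 136 ribosomal protein genes (bottom), in percent, 1 bar per library, both axes from 0. The members take 0.419% to 0.573% in TYS1 DAmP and 0.135% to 0.309% elsewhere; the ribosomal share is lowest in NIT3Δ replicate 2 (18.1%) and MSB3Δ replicate 1 (30.1%).

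The differences among the 3 deletions are taken between libraries other than those of TYS1 DAmP and WT, whose comparison singled out the pathway. The members were chosen with earlier results of these data known, so these differences are not shown to be independent of that choice. They come from 1 limma fit over the 12 mutant libraries, so their SE and p also draw on the spread within TYS1 DAmP, and a fit over the 9 deletion libraries was added. In HSP26Δ against NIT3Δ all 10 members had a positive difference, with a median of 0.72 on the log2 scale where the median of all genes was -0.17. At the study's thresholds 6 were higher in HSP26Δ, where 1.48% of all genes were, and 5 did not overlap, where 2.55% of all genes did not. The 6 were ERG3 (1.52, SE 0.43), ERG25 (0.96, SE 0.29), ERG2 (0.90, SE 0.33), ERG4 (0.68, SE 0.28), ERG6 (0.63, SE 0.22) and ERG24 (0.62, SE 0.25). For ERG3 the HSP26Δ libraries were at 991, 611 and 768 FPKM and the NIT3Δ libraries at 422, 164 and 281. None of the 10 had an adjusted p under 0.05 (0.0349% of all genes had). The 6 shared an adjusted p of 0.539 in limma, and the same 6 had an unadjusted p under 0.05 (9.1% of all genes). In the fit over the 9 deletion libraries the same 6 were past the study's thresholds (1.45% of all genes), and the smallest adjusted p of a member was 0.637. With MSB3Δ replicate 1 and NIT3Δ replicate 2 left out, 4 members were past the study's thresholds, where 1.38% of all genes were higher. Without HSP26Δ replicate 1 there were 2, and without HSP26Δ replicate 2 there were 8. The shares of all genes without these libraries are not given here, so the counts show only the dependence on single libraries.

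HSP26Δ against MSB3Δ gave 2 members past the study's thresholds, ERG3 (0.94, SE 0.43) and ERG25 (0.67, SE 0.29), where 1.45% of all genes were higher. None had an adjusted p under 0.05 (0.0349% of all genes), and the same 2 had an unadjusted p under 0.05 (5.33% of all genes). No member was without overlap (4.26% of all genes were): ERG25 was at 599 FPKM in MSB3Δ replicate 3 and at 474 in HSP26Δ replicate 2. In the fit over the 9 deletion libraries, 0 members were past the study's thresholds, where 1.54% of all genes were higher. The count also rested on single libraries, for which the shares of all genes are not given here. It was 6 without MSB3Δ replicate 3, 5 without HSP26Δ replicate 2 and 0 without any of the other 4 libraries. With the 2 low-ribosome libraries left out it was 0, where 1.31% of all genes were higher. In MSB3Δ against NIT3Δ the member differences ran from 0.01 to 0.58, and no member passed the study's thresholds (0.14% of all genes were higher), an unadjusted p under 0.05 (0.856%) or an adjusted p under 0.05 (0.0349%). With the 2 low-ribosome libraries left out the members' median there was 0.35, in place of 0.20. Again 0 members passed, where 0.279% of all genes were higher at the study's thresholds.

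The comparisons of TYS1 DAmP with the other mutants reuse the libraries that singled out the pathway, and are descriptions. Against HSP26Δ, which had the next highest mean for 8 members, 6 members were higher in TYS1 DAmP at the study's thresholds (0.821% of all genes) and ERG4 was lower (0.611% of all genes), at -1.09 (SE 0.28), with no member at an adjusted p under 0.05 (0.0524% of all genes). ERG28 and ERG5 overlapped between these 2 strains: ERG5 was at 101 FPKM in TYS1 DAmP replicate 2 and 105 in HSP26Δ replicate 3. Against MSB3Δ 8 members were higher (1.15% of all genes) and none had an adjusted p under 0.05 (0.0349%). Against NIT3Δ 9 were higher (1.48%) and 3 had an adjusted p under 0.05 (0.175%): ERG3 at 2.89 (SE 0.43), ERG2 at 2.00 (SE 0.33) and ERG25 at 1.99 (SE 0.29).

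The members also differed in how far they moved together. Over the 14 libraries each of ERG25, ERG6, ERG24 and ERG11 correlated with the mean of the other 9 members at r = 0.95 to 0.97. ERG3, ERG5, ERG2, ERG28 and ERG1 gave 0.90, 0.91, 0.79, 0.73 and 0.69. Without TYS1 DAmP (11 libraries) ERG25, ERG6, ERG4, ERG24 and ERG11 had values of 0.88 or more, while ERG2, ERG28 and ERG1 gave 0.48, 0.37 and 0.29. These 3 are among the members at the extremes of the 2 low-ribosome libraries. The correlations are across libraries that share strains, and are given without a test.

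The enzymes and electron donors that work beside the members were examined next. Of ERG26, ERG27, ERG29, NCP1 and CYB5, 4 were higher in TYS1 DAmP at the study's thresholds, where 3.34% of all genes were. CYB5, cytochrome b5, an electron donor to desaturases, was at 364, 342 and 274 FPKM against 153 and 138 in WT (log2 fold change 1.16, SE 0.18). NCP1, the reductase that feeds the cytochromes P450, was at 275, 299 and 262 against 158 and 145 (0.87, SE 0.15). ERG29 (1.15, SE 0.26) and ERG26 (0.75, SE 0.25), of the methyl sterol steps, were also higher. In HSP26Δ ERG29 (0.66, SE 0.16) and NCP1 (0.60, SE 0.20) were higher (5.67% of all genes were), but CYB5 was at 103, 97.7 and 150.1 FPKM, overlapping with WT. In NIT3Δ CYB5 was lower than WT at the study's thresholds, at 85.2, 112 and 86.0 FPKM (-0.63, SE 0.22). The CYB5 promoter window held the sterol response element core, and those of the other 4 genes did not.

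In the early pathway, from acetyl-CoA to lanosterol, few genes passed. Of 11 genes (ERG10, ERG13, HMG1, HMG2, ERG12, ERG8, MVD1, IDI1, ERG20, ERG9 and ERG7), 1 was higher in TYS1 DAmP at the study's thresholds: ERG9, squalene synthase, the last of them before ERG1, at 555, 311 and 303 FPKM against 195 and 198 in WT (0.92, SE 0.29). Of all genes 3.34% were higher, and the median over the 11 was 0.14, beside 0.07 over all genes. In HSP26Δ 1 of the 11 was higher (5.67% of all genes were), HMG2, one of the HMG-CoA reductase isozymes (0.77, SE 0.23), and in MSB3Δ and NIT3Δ none passed.

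Among 10 sterol regulators, UPC2 and HAP1, a heme-responsive activator of several ERG genes, were higher at the study's thresholds in both TYS1 DAmP and HSP26Δ. Of all genes, 3.34% and 5.67% were higher in these strains. UPC2 was at 129, 73.7 and 46.1 FPKM in TYS1 DAmP, 46.2, 36.1 and 25.0 in HSP26Δ and 22.4 and 18.0 in WT, with log2 fold changes of 1.87 (SE 0.41) and 0.76 (SE 0.25). HAP1 gave 0.73 (SE 0.17) and 0.60 (SE 0.20). These are transcript levels, and the activity of the factors in this strain background was not measured. ECM22, the paralog of UPC2, was not past the thresholds in either strain. Of 9 genes of sterol uptake, esterification and acetylation, ATF2, a sterol acetyltransferase, was higher in TYS1 DAmP at 134, 93.5 and 102 FPKM against 23.7 and 18.9 in WT (2.30, SE 0.21), and in HSP26Δ (0.96, SE 0.26). ARE1, a sterol acyltransferase, was higher in TYS1 DAmP (0.91, SE 0.19). AUS1, a sterol importer, was at 83.9 FPKM in TYS1 DAmP replicate 1 and at 10.6 and 9.51 in the other 2, and was not called.

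Heme synthesis and hypoxic genes were examined because several members need heme and oxygen. The 17 genes were HEM1, HEM2, HEM3, HEM4, HEM12, HEM13, HEM14, HEM15, CYC1, CYC7, ANB1, AAC3, COX5B, HMX1, OLE1, DAN1 and TIR1. Of these, 4 were higher and 1 lower in TYS1 DAmP at the study's thresholds, where 3.34% of all genes were higher. Among the genes not called, OLE1 (-0.47, SE 0.48), CYC7 (0.22, SE 0.36), AAC3 (0.10, SE 0.31) and COX5B (0.58, SE 0.33) overlapped with WT. ANB1 (1.10, SE 0.67) was at 743 FPKM in replicate 1 and at 159 and 160 in replicates 2 and 3. TIR1, an anaerobically induced cell wall mannoprotein, was at 4049.8, 2494 and 2003 FPKM against 95.8 and 98.2 in WT (4.80, SE 0.30). DAN1, of the same kind, was at 1320.1, 44.7 and 40.9 FPKM against 3.58 and 4.92 in WT (4.71, SE 1.59), with replicate 1 far above the others. HEM13 and HEM14, of heme synthesis, gave 0.81 (SE 0.31) and 0.84 (SE 0.26), and CYC1, a heme-activated cytochrome c, gave -1.54 (SE 0.58). In HSP26Δ TIR1 was higher (2.04, SE 0.50) and CYC1 lower, at 12.5, 26.2 and 16.9 FPKM against 80.8 and 83.1 (-2.15, SE 0.28), while HEM13 was at 211, 178 and 150.4 FPKM, below both WT values of 235 and 272. In MSB3Δ, where no member passed, TIR1 (1.70, SE 0.61), DAN1 (1.80, SE 0.59) and HEM14 (0.60, SE 0.25) were higher at the study's thresholds, and in NIT3Δ DAN1 was (1.02, SE 0.41). Of all genes, 5.67%, 3.93% and 4.31% were higher in HSP26Δ, MSB3Δ and NIT3Δ. MSB3Δ replicate 3, the library with all members above WT, also had the lowest CYC1 (25.9 FPKM) and the highest TIR1 (804 FPKM) of its strain. The link between these genes and the members was not tested. SUR2 and SCS7, membrane hydroxylases of sphingolipids related to ERG25 and ERG3, were not called in any mutant against WT.

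The 10 genes outside the members whose levels followed them most closely over the 14 libraries were HES1, ATF2, NCP1, SCM4, ARE1, HAP1, INA1, PAU18, TIR1 and PBI1, with Pearson r from 0.89 to 0.97 to the mean of the standardised members. HES1, an oxysterol-binding protein, came first (r = 0.97 over 14 libraries, 0.93 over the 11 without TYS1 DAmP, and 0.89 between deviations from group means). Its mean was 4.24 FPKM in WT, 22.3 in HSP26Δ and 137 in TYS1 DAmP. Over the 11 libraries without TYS1 DAmP the 10 genes ranged from 0.70 (TIR1) to 0.96 (NCP1). PAU18 belongs to a family of near-identical copies, so its reads could fall on several genes and its value is uncertain. Of these 10, 5 (ATF2, NCP1, ARE1, HAP1 and TIR1) are in the lists above. The genes were picked for this likeness, and it is given without a test.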

How the data were processed

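RNA of log-phase cultures was sequenced by the authors (BGISEQ-500), who deposited 1 FPKM value per gene and library, rounded to 2 decimals, for 5886 gene names. The submitters' processing notes name HISAT2 2.1.0, Bowtie2, RSEM 1.3.1, DESeq2 1.4.5 and build R64, without saying which step each served. FPKM is relative to each library's total, so a large change in abundant transcripts shifts all other genes. Of the names, 5868 matched R64.

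Values were tested as log2(FPKM + 1) with limma 3.58.1 (R 4.3.3, variance trend, robust) over 5727 genes whose mean was 1 FPKM or more. Each mutant was fitted with WT, and mutants were compared in 1 fit over their 12 libraries. Calls were made as in the study (more than 1.5 or less than 0.7 times, unadjusted p under 0.05) and at a Benjamini-Hochberg adjusted p under 0.05 over all genes tested. The procedure was run on simulated data with independent noise for each gene and no shift of whole libraries. That run does not cover shifts of whole libraries such as those seen here. Depth was estimated from the steps in 501 low values of 103 genes, of which 92.2% lay within 0.15 of a whole fragment when 140 bases were taken off each coding length.

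All 10 members are named, with the genes of the lists given and the 10 genes most like the members. The members and lists were chosen with earlier results of these data known. No 2 libraries shared more than 0.28% of values. Other settings tried were leaving out each library, array weights, a block for the replicate number, a joint fit of the 5 groups, scaling by median ratios, 0.1 as pseudocount, and a minimum mean of 10 FPKM or none. Same-numbered HSP26Δ and TYS1 DAmP libraries deviated together from their group means (r = 0.207, 0.345 and 0.133). Same-numbered MSB3Δ and TYS1 DAmP libraries did so too (r = 0.095, 0.285 and 0.206). These pairings were seen in the data and are not given by the labels. With the block, TYS1 DAmP against HSP26Δ gave 7 members at the study's thresholds, as without it. Of these, 6 were higher, where 0.856% of all genes were. TYS1 DAmP against MSB3Δ gave 8, as without it, all higher, where 1.2% of all genes were. In both comparisons 0 members passed at the adjusted p. The shares of all genes lower or past the adjusted p with the block are not given here. These counts are not read as particular to the members. Leaving out the 2 low-ribosome libraries together, a fit over the 9 deletion libraries, and the counts at the study's thresholds between deletions, were chosen after seeing the data. Analyses used Python 3.11.15, pandas 2.3.3, NumPy 2.4.6 and matplotlib 3.10.9.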

Additional observations from a re-analysis of the deposited data

Results flagged for a closer look

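Between mutants, 3 members differed past an adjusted p of 0.05 in limma, all in TYS1 DAmP against NIT3Δ: ERG3 (log2 difference 2.89, adjusted p = 0.0194), ERG25 (1.99, adjusted p = 0.0163) and ERG2 (2.00, adjusted p = 0.0346), each higher in 3 of 3 TYS1 DAmP libraries than in every NIT3Δ library. The TYS1 DAmP libraries also singled out the pathway, so these are descriptions. With any 1 of the 6 libraries left out, 0 or 1 member was past this threshold.

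In 2 members the libraries of 2 mutants lay on opposite sides of WT. ERG2 was above both WT libraries in all 3 HSP26Δ and all 3 TYS1 DAmP libraries and below both in all 3 NIT3Δ libraries. Its difference between HSP26Δ and NIT3Δ was 0.90 (limma adjusted p = 0.539), which fails the correction. ERG4 was above WT in all 3 HSP26Δ libraries and below it in all 3 TYS1 DAmP libraries, a difference of -1.09 for TYS1 DAmP against HSP26Δ (limma adjusted p = 1.00), which also fails it.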

How the results depend on the processing

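The libraries, 2 in WT and 3 in each mutant, limit these comparisons more than the depth does. Of 656 alternative values of single members, 573 kept their direction and their side of an adjusted p of 0.05, 29 lost and 33 gained the call, and 21 changed sign, all 21 in MSB3Δ or NIT3Δ against WT, where no member was called. The counts of members below stand without the share of all genes called in the same setting. They show only how the counts move with the processing, and are not read as particular to the members.

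Median-ratio scaling moved the all-gene median from 0.07 (TYS1 DAmP), 0.08 (HSP26Δ), 0.28 (NIT3Δ) and 0.18 (MSB3Δ) to between -0.013 and -0.003, and the members' median in NIT3Δ to -0.40 and in MSB3Δ from 0.168 to -0.02. It gave negative values for ERG25 (-0.10) and ERG4 (-0.15) in MSB3Δ and for ERG1 (-0.088) and ERG24 (-0.16) in NIT3Δ, and 1 member past the study's thresholds in HSP26Δ against MSB3Δ. A single fit over all 5 groups left 0 members at an adjusted p under 0.05 in TYS1 DAmP against WT.

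Array weights, whose estimation converged for NIT3Δ, HSP26Δ and TYS1 DAmP against WT but not for the other 7 comparisons, gave counts at an adjusted p under 0.05 of 1 in MSB3Δ, 3 in HSP26Δ and 10 in TYS1 DAmP against WT, and of 9 in HSP26Δ against MSB3Δ, 1 in HSP26Δ against NIT3Δ, and 1, 10 and 8 in TYS1 DAmP against HSP26Δ, MSB3Δ and NIT3Δ. At the study's thresholds they gave 8 in HSP26Δ against WT and 6 in HSP26Δ against MSB3Δ. The members' median was -0.11 in MSB3Δ and -0.005 in NIT3Δ, with ERG1 (-0.039), ERG25 (-0.27) and ERG4 (-0.19) in MSB3Δ and ERG1 (-0.047), ERG6 (0.008) and ERG4 (0.032) in NIT3Δ changing sign. The cause was not tested.

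With the replicate block, 1 member had an adjusted p under 0.05 in HSP26Δ against WT and 1 in TYS1 DAmP against NIT3Δ, and 1 passed the study's thresholds in NIT3Δ against WT and 1 in HSP26Δ against MSB3Δ. The members' median was -0.07 in MSB3Δ, in place of 0.168, -0.056 in NIT3Δ, and 0.476 in HSP26Δ, in place of 0.652. In MSB3Δ ERG25 was -0.22 and ERG4 -0.21. The block changed no other count of members by over 1.5 times. Of 12 ordered pairs of mutants, 4 had all 3 libraries most like their own number: TYS1 DAmP with HSP26Δ and with MSB3Δ, in both directions. MSB3Δ and HSP26Δ matched in replicates 2 and 3 but not in replicate 1. Over 26 same-numbered pairs the deviations from group means correlated at -0.77 to 0.44, above 0.1 in 11. A library deviated most like its own number in 18 of 36 comparisons with another mutant.

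Leaving out 1 library at a time gave, at an adjusted p under 0.05, 0 to 10 members in TYS1 DAmP against WT (10 without TYS1 DAmP replicate 1 and 0 without any other), 0 to 7 in HSP26Δ against WT, 0 to 2 in TYS1 DAmP against MSB3Δ (2 without MSB3Δ replicate 3) and 0 to 1 in TYS1 DAmP against NIT3Δ. At the study's thresholds it gave 0 to 2 in MSB3Δ against WT (2 without MSB3Δ replicate 2), 0 to 1 in NIT3Δ (1 without NIT3Δ replicate 1), 3 to 7 in HSP26Δ against WT, 0 to 6 in HSP26Δ against MSB3Δ and 2 to 8 in HSP26Δ against NIT3Δ. The members' median in NIT3Δ ranged from -0.19 to -0.049. In MSB3Δ against WT the ranges were -0.47 to 0.066 for ERG11, -0.22 to 0.27 for ERG25, -0.48 to 0.038 for ERG2, -0.54 to 0.35 for ERG3 and -0.21 to 0.17 for ERG4, and ERG1 in NIT3Δ ranged from -0.066 to 0.35. HSP26Δ against MSB3Δ gave 0 members without both low-ribosome libraries, and 0 in the fit over the 9 deletion libraries.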
